A study of Mus musculus with 2 samples.

Results

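The genes described here are 34 genes of sterol and fatty acid synthesis, out of the 31053 genes counted in single-cell RNA sequencing (scRNA-seq) of mouse pancreatic islets. They were taken by name as genes of the pathway, and no measured value enters the rule that lists them. The list was chosen with earlier results of these data known. The list holds 5 regulators (Srebf1, Srebf2, Scap, Insig1, Insig2), 18 genes of a sterol arm that runs from acetyl-CoA to cholesterol and its transfer, and 11 genes of a fatty acid arm that runs from citrate to unsaturated long chains. All 34 had at least 1 UMI, and 33 had at least 50 UMIs in the β-like cells of both libraries together. Fads2, with 10 WT UMIs and 17 HFD UMIs there, was the exception. A UMI (unique molecular identifier) stands for 1 captured RNA molecule.

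The study sequenced 2 islet preparations on the 10x 3′ v3 platform, and each of the 2 groups is 1 library. WT islets came from male C57/B6 mice, 16 weeks old and labelled wild-type, with no diet named. HFD islets came from male C57/B6 mice of the same age on a diet with 60% of its kcal as fat, begun at 6 weeks of age and kept up for 10 weeks. In both groups the islets of 4 mice were pooled and dead cells were removed. No genotype other than C57/B6 is named for either group. Diet, preparation and library therefore cannot be told apart, no test was possible, and each 95% interval below covers counting error only. The spread between cells and between mice is left out of these intervals.

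Cholesterol and fatty acid synthesis are controlled by the SREBP transcription factors, which wait in the membrane of the endoplasmic reticulum bound to SCAP. When membrane sterol is plentiful, INSIG proteins hold this complex in place. When sterol falls, the complex moves to the Golgi, where the factor is cut free to enter the nucleus. SREBP-2, the product of Srebf2, acts mainly on sterol genes, and SREBP-1c, a product of Srebf1, mainly on fatty acid genes. In β cells both routes supply membranes, including those of insulin granules.

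The WT library held 73843674 UMIs over 3895 barcodes and the HFD library 94375138 UMIs over 8951 barcodes. Filtering left 2497 WT and 6673 HFD cells (medians of 23976 and 10925 UMIs), and 3 of the barcode sequences occurred in both libraries. Cells were clustered without the genes described here. The 7 clusters named β-like held 1714 WT cells with 54703999 UMIs and 5506 HFD cells with 73192312 UMIs. All 7 β markers other than insulin had UMIs in both libraries and summed to 1638 CPM (WT) and 1296 CPM (HFD), where CPM is UMIs per 1000000 UMIs of the same cells. Endothelial markers in these cells summed to 4.90 and 5.59 CPM. The median β-like cell was deeper in WT (28694 UMIs) than in HFD (11758 UMIs), and 4 of the 7 clusters, with 79.0% of the HFD cells, held only 4.32% of the WT cells.

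Promoter sequences were available for 27 of the 34 genes (RefSeq, GRCm38.p6, the build of the counted genes). In the 250 bases before the start, the sterol regulatory element core TCACNCCAC was found on either strand in 1 of the 27, Hmgcs1, against 1.22% of all 27025 genes with a promoter sequence. CCAAT, the letters bound by NF-Y, stood before 13 of 14 sterol genes and 4 of 8 fatty acid genes, against 37.5% of all genes and 40.6% of the genes with at least 50 UMIs in β-like cells. GGGCGG, the GC box, also stood before 13 of 14 and 4 of 8, against 35.4% and 64.8%. CACGTG, the E-box, stood before 3 and 1, against 6.86% and 10.1%. Of the 5 regulators 4 held CCAAT, 5 GGGCGG and 2 CACGTG. All 4 motifs were searched on both strands, and a gene with several starts counted if any of them held the motif. The 5 sterol genes with any HFD to WT ratio above 1 at each depth from 10000 UMIs up, Hmgcs1, Pmvk, Mvd, Cyp51 and Ebp, are printed first. They were 5 of the 32 members counted there, close to the 13.7% of all genes. Acly, which supplied most UMIs of the fatty acid arm, is printed last. Capitals mark the motifs on either strand, which do not overlap in these windows.
Hmgcs1: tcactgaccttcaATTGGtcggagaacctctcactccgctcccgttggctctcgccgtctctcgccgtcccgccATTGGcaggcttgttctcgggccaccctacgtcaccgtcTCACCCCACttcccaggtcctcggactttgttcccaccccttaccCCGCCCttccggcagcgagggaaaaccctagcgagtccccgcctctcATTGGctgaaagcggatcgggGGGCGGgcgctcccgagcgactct
Pmvk: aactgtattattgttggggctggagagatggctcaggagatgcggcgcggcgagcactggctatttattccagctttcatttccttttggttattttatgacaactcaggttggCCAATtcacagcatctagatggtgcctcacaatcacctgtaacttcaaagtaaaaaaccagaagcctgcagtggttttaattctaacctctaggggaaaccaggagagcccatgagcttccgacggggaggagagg
Mvd: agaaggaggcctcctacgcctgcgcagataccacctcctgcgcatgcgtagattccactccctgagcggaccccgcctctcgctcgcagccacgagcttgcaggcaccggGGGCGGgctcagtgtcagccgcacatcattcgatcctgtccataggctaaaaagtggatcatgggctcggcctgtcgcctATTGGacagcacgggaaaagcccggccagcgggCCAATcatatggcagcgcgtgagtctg
Cyp51: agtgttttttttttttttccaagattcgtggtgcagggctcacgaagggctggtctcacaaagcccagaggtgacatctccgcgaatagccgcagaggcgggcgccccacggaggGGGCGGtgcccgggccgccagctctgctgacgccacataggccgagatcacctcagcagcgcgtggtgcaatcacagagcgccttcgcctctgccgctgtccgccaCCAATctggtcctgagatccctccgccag
Ebp: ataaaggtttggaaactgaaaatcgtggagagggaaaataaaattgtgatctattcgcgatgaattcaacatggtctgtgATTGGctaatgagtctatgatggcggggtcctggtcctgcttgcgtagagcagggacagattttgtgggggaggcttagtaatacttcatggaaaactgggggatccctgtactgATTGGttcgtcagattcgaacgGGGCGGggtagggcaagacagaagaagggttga
Acly: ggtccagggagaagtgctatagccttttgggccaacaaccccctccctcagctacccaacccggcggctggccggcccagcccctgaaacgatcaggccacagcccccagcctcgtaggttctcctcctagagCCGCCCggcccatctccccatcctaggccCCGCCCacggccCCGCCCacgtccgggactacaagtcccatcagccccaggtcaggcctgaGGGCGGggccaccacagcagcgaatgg

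The windows lie at chr13:119690101-119690350 on the plus strand (Hmgcs1), chr3:89454291-89454540 on the plus strand (Pmvk), chr8:122443423-122443672 on the minus strand (Mvd), chr5:4104698-4104947 on the minus strand (Cyp51), chrX:8193513-8193762 on the minus strand (Ebp) and chr11:100528001-100528250 on the minus strand (Acly). Each ends at the base before the gene's first listed start. Of these 6 windows that of Hmgcs1 alone held all of TCACNCCAC, CCAAT and GGGCGG, with the first lying 137 to 129 bases before the start. The Acly window held 4 GC boxes and no CCAAT. A match in letters is not a measured binding site.

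In β-like cells pooled over all depths, the sterol arm was higher in HFD and the fatty acid arm was nearly level. The sterol arm summed to 23124 UMIs (423 CPM) in WT against 41682 UMIs (569 CPM) in HFD, a ratio of 1.35 (interval on the log2 scale 0.41 to 0.45 around 0.43). The fatty acid arm summed to 378 CPM (WT) and 362 CPM (HFD), a log2 ratio of -0.06 (interval -0.09 to -0.04). There were 1.12 sterol UMIs for each fatty acid UMI in WT and 1.57 in HFD, a log2 difference of 0.49 (interval 0.46 to 0.53) that does not depend on how the libraries are scaled. Acly gave 13996 of the 20683 WT UMIs of the fatty acid arm. Without it that arm stood at 122 CPM (WT) and 116 CPM (HFD). With at most 15000 UMIs per cell, the maximum in the study's methods, the log2 ratios were 0.15 for the sterol arm and -0.25 for the fatty acid arm.

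**Figure D1:**
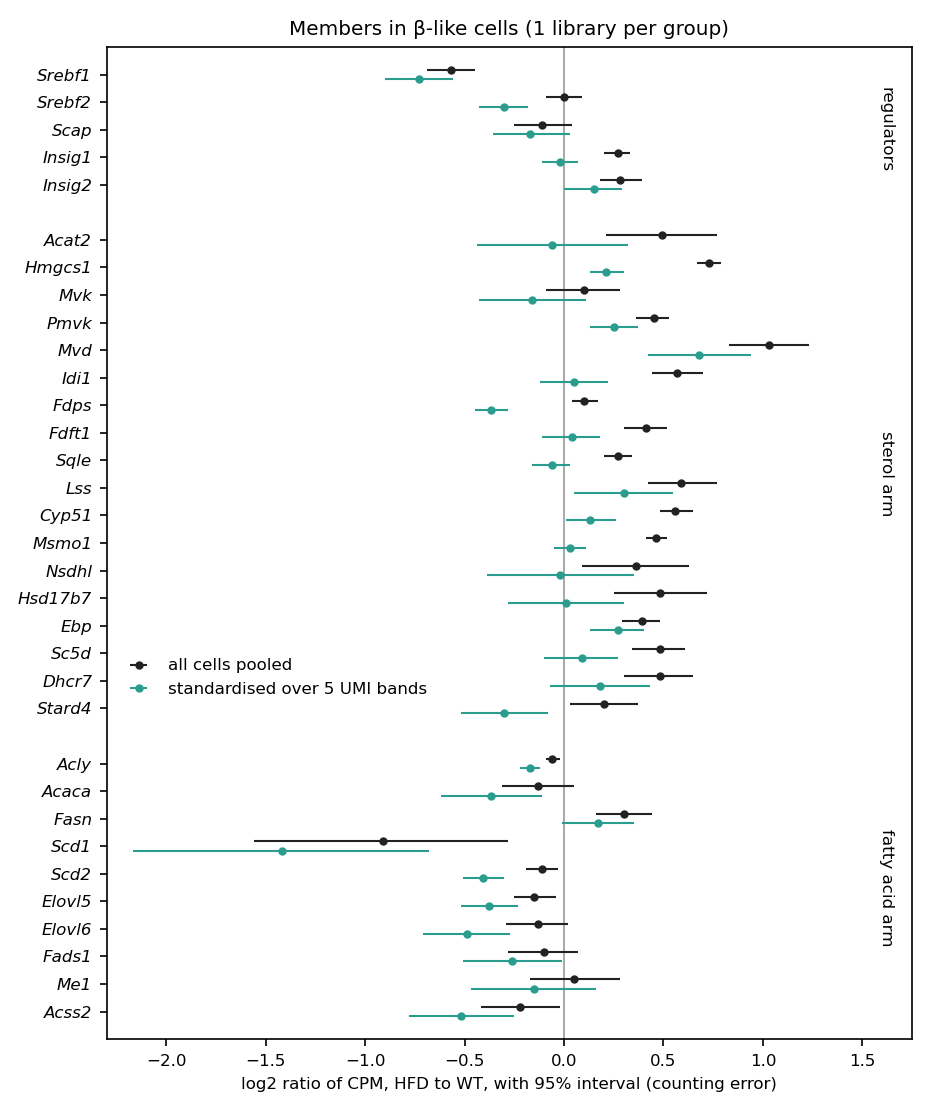
Log2 ratio of CPM, HFD to WT, in β-like cells for the 33 genes with at least 50 UMIs, with 95% intervals for counting error. Black points pool all cells and green points are standardised over 5 bands of UMIs per cell. The black points of the sterol arm lie between 0.10 and 1.03, and the green points between -0.37 and 0.68.

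Among the regulators, Srebf1 was lower in HFD and the 2 Insig genes were higher. Srebf1 had 1216 UMIs in WT and 1097 UMIs in the larger HFD total, a CPM ratio of 0.674 (log2 -0.57, interval -0.69 to -0.45). Srebf2 was level, at 30.4 and 30.5 CPM (0.00, interval -0.09 to 0.09). Scap, the sterol sensor that escorts both factors, stood at 12.3 and 11.4 CPM, with an interval that spans 0 (-0.25 to 0.04). Insig1, itself a target of the SREBP factors, stood at 55.2 and 66.5 CPM (0.27, interval 0.20 to 0.33). Insig2, the second retention protein, stood at 20.3 and 24.7 CPM (0.28, interval 0.18 to 0.39).

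Of the 18 sterol genes, 17 had an interval above a ratio of 1, against 24.6% of all 12060 genes with at least 50 UMIs, and none had one below it, against 21.8%. The first steps join acetyl-CoA units into HMG-CoA and turn it, through mevalonate, into isoprenoid units. Acat2, a cytosolic thiolase, stood at 3.02 CPM (WT) and 4.22 CPM (HFD) (log2 ratio 0.49). Hmgcs1, HMG-CoA synthase, stood at 52.8 and 87.6 CPM (0.73, interval 0.67 to 0.79). Mvk, mevalonate kinase, was the sterol gene whose interval spanned 0, at 7.28 and 7.77 CPM (0.10, interval -0.09 to 0.28). The next kinase, Pmvk, had 1694 and 3089 UMIs (0.45). Mvd, the decarboxylase that ends this stretch, stood at 4.97 and 10.1 CPM (1.03, interval 0.83 to 1.23). Mvd, at 272 WT UMIs and 742 HFD UMIs, had the largest log2 ratio of all 34 genes. Idi1, the isomerase that balances the isoprenoid units, stood at 13.2 and 19.6 CPM (0.57, interval 0.44 to 0.70).

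The next genes build and close the sterol skeleton. Fdps, farnesyl diphosphate synthase, was close to level at 67.1 CPM (WT) and 72.1 CPM (HFD) (0.10, interval 0.04 to 0.17). Fdft1, squalene synthase, had 1042 and 1853 UMIs (0.41), and Sqle, squalene epoxidase, stood at 50.9 and 61.2 CPM (0.27). Lss, which closes the ring to lanosterol, stood at 7.48 and 11.3 CPM (0.59, interval 0.42 to 0.77). The genes that trim lanosterol to cholesterol had similar ratios among themselves. Cyp51, the lanosterol demethylase, stood at 28.7 and 42.5 CPM (0.56), and Msmo1, the methylsterol oxidase, at 74.4 and 103 CPM (0.46). Nsdhl and Hsd17b7, which complete the demethylation, stood at 3.36 and 4.32 CPM (0.36) and at 4.19 and 5.85 CPM (0.48). Ebp, the sterol isomerase, stood at 25.9 and 33.8 CPM (0.39). The late enzymes Sc5d, a desaturase, and Dhcr7, a reductase, stood at 13.1 and 18.3 CPM (0.48) and at 7.53 and 10.5 CPM (0.48). Stard4, a carrier of cholesterol between membranes, stood at 8.77 and 10.1 CPM (0.20, interval 0.03 to 0.37).

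Of the 10 counted genes of the fatty acid arm, 5 had an interval below a ratio of 1, against 21.8% of all genes, 1 had one above it, against 24.6%, and 4 had one that spanned it. Acly, which splits citrate into acetyl-CoA, stood at 256 CPM (WT) and 246 CPM (HFD) (-0.06, interval -0.09 to -0.02). Acss2, which makes acetyl-CoA from acetate, had 383 and 441 UMIs (-0.22, interval -0.42 to -0.02). Acaca, the carboxylase that commits acetyl-CoA to fat, stood at 8.39 and 7.68 CPM with an interval from -0.31 to 0.05. Fasn, fatty acid synthase, was the exception, at 12.5 and 15.4 CPM (0.30, interval 0.16 to 0.44). Me1, malic enzyme, a source of NADPH, was level at 5.19 and 5.38 CPM (0.05). The desaturases Scd1 and Scd2 put the first double bond into saturated chains. Scd1 rested on 52 WT UMIs and 37 HFD UMIs (-0.91, interval -1.56 to -0.28), while Scd2 stood at 43.8 and 40.7 CPM (-0.11). The elongases Elovl5 and Elovl6 had 1329 and 1607 UMIs (-0.15) and 601 and 733 UMIs (-0.13, interval -0.29 to 0.02). Fads1, a desaturase of polyunsaturated chains, stood at 8.88 and 8.27 CPM (-0.10, interval -0.28 to 0.07). Fads2, its partner, had too few UMIs for a useful ratio (interval -0.86 to 1.63).

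The counts can be read beside those of all 12060 genes with at least 50 UMIs. An interval above 1 was found for 20 of 33 members, 17 of them sterol genes, against 24.6% of all genes, and an interval below 1 for 6, against 21.8%. At least 1.5-fold higher were 3 members (Hmgcs1, Mvd, Lss), against 3.73% of all genes, and at least 1.5-fold lower was 1 (Scd1), against 4.73%. The median log2 ratio was 0.47 over the 18 sterol genes and -0.12 over the 10 fatty acid genes, beside 0.00 over all genes.

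The size of the sterol difference changed with the depth of the cells compared. In HFD cells of up to 5000 UMIs the sterol arm stood at 793 CPM against 471 CPM in WT (94 WT and 205 HFD cells), and in cells of 5000 to 10000 UMIs at 728 against 530.0 CPM (49 and 1833 cells). At 10000 to 15000 UMIs HFD was lower, at 571 CPM against 626 CPM in WT (log2 ratio -0.13, interval -0.25 to -0.01). In deeper cells the libraries were close, at 516 CPM in HFD and 511 CPM in WT (15000 to 30000 UMIs) and 393 and 379.5 CPM (above 30000 UMIs). In HFD the sterol arm was lower in each deeper band, while in WT it was highest in the band of 10000 to 15000 UMIs, above both shallower and both deeper bands. The 10000 to 15000 band held 70 WT cells and 1705 HFD cells, and 807 WT cells but 124 HFD cells exceeded 30000 UMIs. The fatty acid arm was lower in HFD in each of these upper 3 bands, with log2 ratios of -0.44, -0.19 and -0.29. The share of UMIs from insulin, which sets part of the CPM scale, ran from 54.2% to 62.9% over the bands in WT and from 52.0% to 58.5% in HFD, and without hormone and mitochondrial genes in the total the standardised sterol value given next was 0.05.

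**Figure D2:**
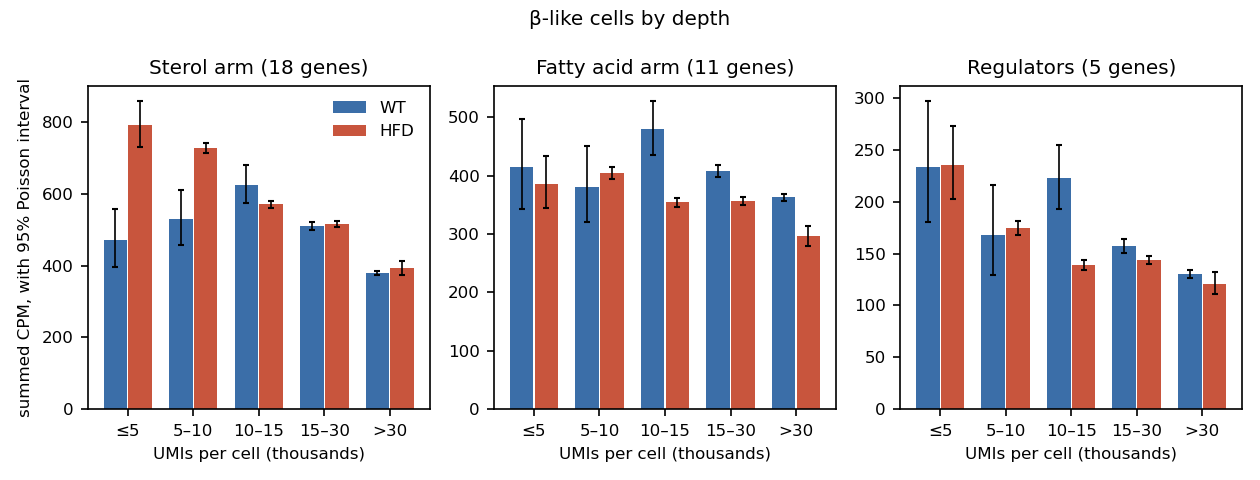
Summed CPM of the sterol arm, the fatty acid arm and the regulators in WT (blue) and HFD (red) β-like cells, by band of UMIs per cell, with 95% Poisson intervals. HFD is above WT for the sterol arm in the 2 shallow bands (793 against 471 and 728 against 530.0 CPM), while the upper 3 bands differ by less.

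The 5 bands were then combined by Mantel-Haenszel standardisation, whose weights are large where both libraries hold many UMIs. The band of 15000 to 30000 UMIs (15636212 WT and 32923292 HFD UMIs) weighed most. The 2 bands below 10000 UMIs, with 282257 and 362263 WT UMIs, weighed little. The log2 ratio was 0.04 for the sterol arm (interval 0.00 to 0.07) and -0.22 for the fatty acid arm (interval -0.26 to -0.18). For the regulators it was -0.15. This scaling moved the median of all genes to -0.17. Relative to that median the sterol arm stood at 0.21, the fatty acid arm at -0.05 and the regulators at 0.02. In the bands one by one, the sterol arm stood above the median of all genes in each, by 0.13 to 0.55. The ratio of sterol to fatty acid UMIs was also higher in HFD in each band, with log2 differences of 0.85, 0.37, 0.31, 0.21 and 0.34 from the shallowest to the deepest and no interval that reached 0. By cluster, as given below, this was not so throughout.

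Gene by gene, standardisation left 6 members with an interval above 1 (Hmgcs1, Pmvk, Mvd, Lss, Cyp51, Ebp), against 12.6% of all genes, and 12 with an interval below 1, against 38.4%. The 12 were 8 fatty acid genes, Srebf1, Srebf2, Fdps and Stard4. At least 1.5-fold higher was Mvd alone (1 of 33, against 3.80% of all genes), and at least 1.5-fold lower were Srebf1 and Scd1, against 12.1%. Of the 32 members with at least 50 UMIs in each of the 3 bands from 10000 UMIs up, 5 were higher in HFD in all 3 (Hmgcs1, Pmvk, Mvd, Cyp51, Ebp), against 13.7% of all genes, and 10 were lower in all 3, against 46.1%.

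The genes with most UMIs show how the bands differ. Hmgcs1 had log2 ratios of 1.85, 0.88, 0.07, 0.17 and 0.16 from the shallowest band to the deepest, and Msmo1 had 1.04, 0.25, -0.07, 0.02 and -0.04. Fdps went from 0.89 and 0.28 to -0.51, -0.40 and -0.38, so its pooled value near 0 joins bands of opposite sign. Mvd had its largest ratio in the deepest band, at 0.30, 0.17, 0.12, 0.64 and 1.12, with 8 WT UMIs in the third band, 96 in the fourth and 161 in the fifth. Lss changed sign between bands, at 1.15, 0.79, -0.39, 0.49 and -0.34. Among the regulators, Srebf2 stood at 0.44, 0.10, -0.98, -0.29 and -0.25 and Insig1 at -0.35, 0.03, -0.59, 0.02 and 0.09. Srebf1 was lower in HFD in all 5 bands, with log2 ratios of -1.17, -0.59 and -1.14 in the upper 3. In the deepest band it stood at 9.81 CPM in HFD against 21.7 CPM in WT.

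In the fatty acid arm the bands from 10000 UMIs up mostly lay below 0. Acly had log2 ratios of -0.14, -0.02, -0.32, -0.12 and -0.30, and Scd2 had 1.15, 0.63, -0.76, -0.41 and -0.48. Elovl5 was lower in HFD in all 5 bands, by 0.95, 0.11, 0.32, 0.47 and 0.12 on the log2 scale. Only the fourth had an interval clear of 0 (-0.64 to -0.29), and each of the first 2 held 10 WT UMIs. Fasn had mixed signs, at -0.85, 0.46, -0.42, 0.17 and 0.40. Scd1 had at most 28 WT UMIs and 13 HFD UMIs in any band, and Fads2 at most 4 and 8, so neither could be followed over depth.

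The 3 clusters that held at least 100 β-like cells of each library did not move together. They were led by Rasd1 and C2cd4b (415 WT and 551 HFD cells), by Fos and Mafa (938 and 298), and by the interferon and metallothionein genes Ifit1, Cxcl10, Mt1 and Mt2 (287 and 310). The first 2 were alike, with Rasd1, C2cd4b and Fos among the leading genes of both. Standardised over the UMI bands within each cluster, the sterol arm had a log2 ratio of 0.66 in the first (interval 0.56 to 0.75), 0.58 in the second (interval 0.46 to 0.71) and -0.45 in the interferon-led cluster (interval -0.55 to -0.35). The medians of all genes there were 0.03, 0.05 and -0.20. The fatty acid arm was near level in the first 2, at 0.05 and 0.03, and stood at -0.22 in the third. Pooled over depth, the sterol arm stood at 0.99, 0.88 and -0.03 (interval of the last -0.10 to 0.03). The sterol to fatty acid ratio, pooled likewise, differed by 0.85, 0.74 and 0.04 on the log2 scale (interval of the last -0.06 to 0.15). At 15000 to 30000 UMIs it differed by 0.59, 0.50 and -0.35 (interval of the last -0.55 to -0.15). In the 4 clusters not shared, with 8 to 39 WT cells, the pooled differences were 0.55, 0.26, 0.09 and 1.42. The intervals of 0.26 and 0.09 spanned 0. Coarser clustering gave a single cluster led by Rasd1, C2cd4b and Fos (1357 WT and 633 HFD cells). Its cluster led by Mt2 and Ifit1 held 313 WT and 1336 HFD cells, and values by cluster were not repeated there.

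At 15000 to 30000 UMIs the interferon-led cluster of WT had higher sterol levels than the other shared clusters. Its 155 WT cells stood at 847 CPM, beside 422 CPM in the 510 WT cells of the other shared clusters, a ratio of 2.01 (interval 1.91 to 2.10). Hmgcs1 stood at 125 against 51.0 CPM, Fdps at 150.2 against 69.5 CPM, Idi1 at 36.2 against 12.8 CPM and Insig1 at 104 against 50.8 CPM. Srebf1 stood at 23.5 against 22.6 CPM (ratio 1.04, interval 0.796 to 1.35). Of 32 members 21 had an interval above 1 here (13 of them sterol genes), against 29.0% of the 9076 genes counted. In HFD the same clusters stood at 595 CPM in 56 interferon-led cells and 633 CPM in 204 others (ratio 0.940, interval 0.857 to 1.03), with 3 of 22 members above 1 (Acly, Scd2, Elovl6) against 4.71% of 5458 genes. The HFD cells of that cluster also held less of its leading genes, with Ifit1 at 15.1 CPM against 102 CPM in WT, and the part of this in the sterol levels was not tested. The clusters were drawn from other genes of the same cells, so these values describe them.

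**Figure D3:**
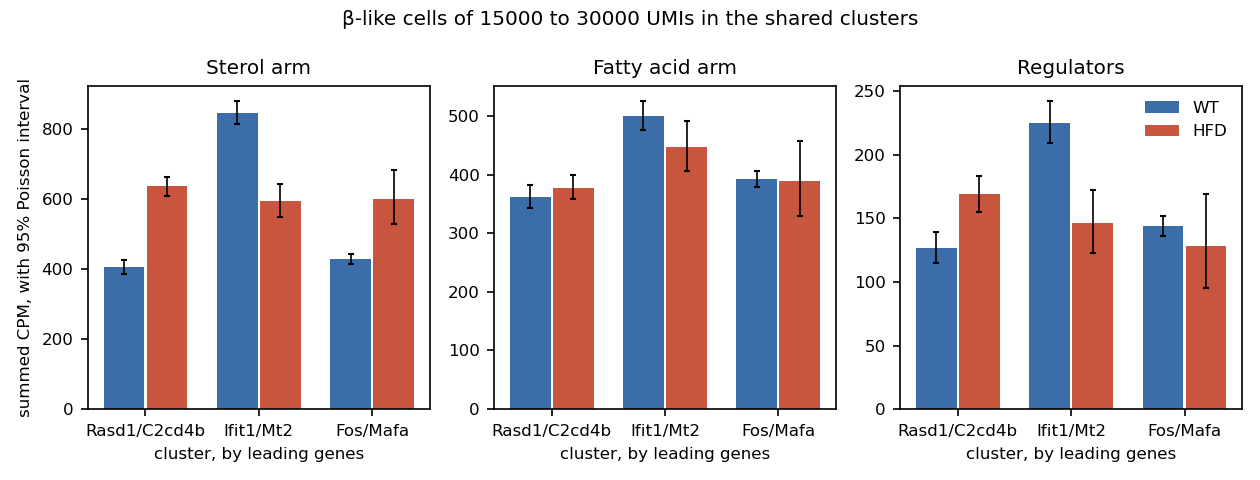
Summed CPM of the sterol arm, the fatty acid arm and the regulators in β-like cells of 15000 to 30000 UMIs, for the 3 clusters shared by both libraries, in WT (blue) and HFD (red), with 95% Poisson intervals. The sterol arm of WT is at 406 and 429.6 CPM in the clusters led by Rasd1 and Fos and at 847 CPM in the one led by Ifit1, while the HFD values lie between 595 and 637 CPM, the one led by Fos resting on 22 HFD cells.

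Leaving the interferon-led cluster out, the standardised log2 ratio of the sterol arm was 0.28 (interval 0.25 to 0.32) in place of 0.04, and the pooled one was 0.62 in place of 0.43. The fatty acid arm then stood at -0.15 standardised and -0.01 pooled. This cluster made up 16.7% of WT β-like cells and 5.63% of HFD β-like cells, and it was picked after its values were seen. As its WT sterol levels were high, leaving it out was bound to raise the ratio of the sterol arm. The rise is therefore no separate result. In the unnamed cluster with several hormones, which was kept out of the β-like class (200 WT and 348 HFD cells), the sterol arm stood at 461 and 632 CPM and the fatty acid arm at 411 and 387 CPM.

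Over single β-like cells the sterol arm had the wider spread. With each cell thinned to 10000 UMIs, and 143 WT and 2038 HFD shallower cells left out, the mean was 4.63 sterol UMIs per WT cell (SD 3.34, n = 1571 cells) and 5.45 per HFD cell (SD 3.36, n = 3468 cells). Unthinned, the pooled values were the 423 and 569 CPM given above. Thinning leaves the original depths unlike, with 807 WT and 124 HFD of these cells above 30000 UMIs. Thinned sterol counts fell with original depth (Spearman correlations of -0.261 in WT and -0.103 in HFD). In the 3 bands from 10000 UMIs up the unthinned log2 ratios were -0.13, 0.01 and 0.05. The part of depth in the higher HFD mean was not tested. The variance was 2.41 times the mean in WT and 2.08 times in HFD for the sterol arm, and 1.33 and 1.27 times for the fatty acid arm, where pure counting would give a value near 1. No sterol UMI was seen in 3.56% of WT cells and 1.67% of HFD cells. The Pearson correlation of the 2 arms over cells was 0.193 in WT and 0.175 in HFD, over points that share a library. It was 0.129 and 0.136 in cells thinned to 5000 UMIs, and 0.286 and 0.210 in cells thinned to 15000. Counting error at so few UMIs per cell holds these values down, so they do not show how closely the arms are related.

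**Figure D4:**
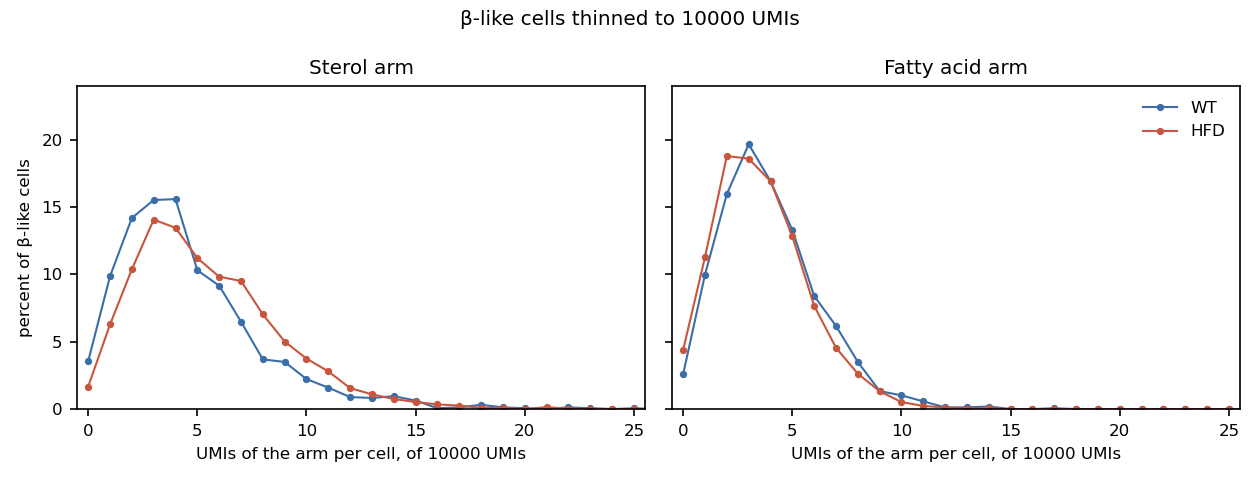
Percent of β-like cells (vertical axis) by the number of UMIs of the sterol or fatty acid arm (horizontal axis) after thinning each cell to 10000 UMIs, in WT (blue) and HFD (red). The sterol curve of HFD is shifted to the right of that of WT (medians of 5 and 4 UMIs), and the fatty acid curve slightly to the left (3 and 4). Original depths differ, with 807 WT and 124 HFD cells above 30000 UMIs before thinning.

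In δ-like cells the pooled sterol arm was also higher in HFD. It stood at 668 CPM in 64 WT cells and 1001 CPM in 122 HFD cells (log2 ratio 0.58, interval 0.41 to 0.76), with Cyp51 at 37.7 and 100.1 CPM and Hmgcs1 at 134 and 194 CPM. Insulin made up 17.9% of the UMIs of these cells in WT against 8.64% in HFD. The part of this in the difference was not tested. These HFD cells were also shallower (medians of 2892 and 7576 UMIs), and among cells of up to 5000 UMIs, with 6 in WT, the ratio was -0.26 (interval -0.93 to 0.49). In α-like cells the sterol arm stood at 617 CPM in 71 WT cells and 692 CPM in 229 HFD cells (0.17, interval 0.01 to 0.32), and Sqle at 38.9 and 68.6 CPM. Among α-like cells of 5000 to 10000 UMIs the ratio was -0.09 (interval -0.37 to 0.20). Both clusters also had Ppy and Pyy, hormones of γ cells, among their leading genes, and with coarser clustering neither kept its name. The pooled sterol to fatty acid ratio differed by 0.50 on the log2 scale in δ-like cells (interval 0.19 to 0.82) and by 0.30 in α-like cells (interval 0.01 to 0.60). At limited depth it differed by 0.13 in δ-like cells of up to 5000 UMIs (interval -1.31 to 1.43) and by 0.35 in α-like cells of 5000 to 10000 UMIs (interval -0.20 to 0.89).

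In endothelial-like cells, whose leading genes include the pericyte gene Rgs5, the sterol arm was not higher in HFD. Their 8 endothelial markers all had UMIs in both libraries, summing to 16269 CPM (WT) and 16856 CPM (HFD). The sterol arm stood at 338 CPM in 179 WT cells and 298 CPM in 158 HFD cells (-0.18, interval -0.43 to 0.07), and the fatty acid arm at 252 and 224 CPM (-0.17, interval -0.46 to 0.12). In bands of matched depth the log2 ratio of the sterol arm was -0.42 (up to 5000 UMIs, interval -0.83 to -0.01) and -0.81 (5000 to 10000 UMIs, interval -1.25 to -0.37). The ratio of the arms was 1.34 in WT and 1.33 in HFD. The pooled sterol intervals of β-like (0.41 to 0.45) and endothelial-like cells did not overlap. The standardised β-like interval (0.00 to 0.07) did overlap the pooled endothelial-like one. In the 2 bands up to 10000 UMIs the β-like intervals were 0.48 to 1.03 and 0.25 to 0.67, above the endothelial-like ones. These intervals cover counting error only, and the difference was not tested. Only 11 members had 50 UMIs here. Of these none was at least 1.5-fold higher, against 6.07% of 5507 genes, and Scd2 was at least 1.5-fold lower (67 WT and 15 HFD UMIs), against 11.9%. Ductal-like, fibroblast-like and macrophage-like cells held 33, 23 and 45 HFD cells, and their sterol ratios had intervals that spanned 0. The fatty acid arm was lower in HFD in ductal-like cells (-0.56, interval -1.04 to -0.10). In fibroblast-like cells it was also lower (-1.56, interval -3.21 to -0.29), on 5 HFD UMIs. Its interval spanned 0 in macrophage-like cells (1.05, interval -0.16 to 2.25). The sterol to fatty acid ratio of macrophage-like cells was lower in HFD, unlike that of β-like cells (log2 difference -1.99, interval -3.60 to -0.37). It rested on 47 and 14 UMIs of the arms in WT and 11 and 13 in HFD.

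**Figure D5:**
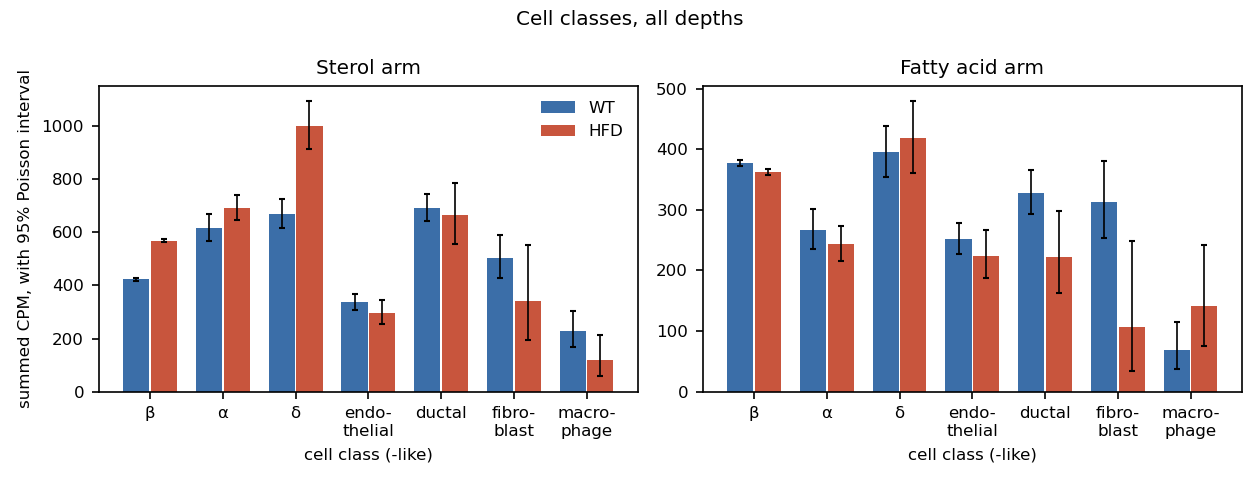
Summed CPM of the sterol arm (left) and the fatty acid arm (right) in 7 cell classes at all depths, in WT (blue) and HFD (red), with 95% Poisson intervals. The sterol arm is higher in HFD in β-like cells (569 against 423 CPM) and δ-like cells (1001 against 668 CPM), and its intervals overlap in endothelial-like cells.

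Of 14 other genes that process SREBP or sense and move sterol, 3 had an interval above 1 in β-like cells, against 24.6% of all genes, and 6 below it, against 21.8%, with a median log2 ratio of -0.01. Of 10 counted genes of fatty acid supply and elongation, 7 had an interval above 1 and 2 below it, with a median of 0.16. Standardised over the bands, 1 of the 14 (Nr1h3) and 1 of the 10 (Tecr) had an interval above 1, against 12.6% of all genes, and 7 and 3 had one below it, against 38.4%.

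Past 1.5-fold when pooled was Mylip alone, whose product marks lipoprotein receptors for decay, on 81 WT UMIs and 57 HFD UMIs (-0.93, interval -1.44 to -0.42). Standardised, 4 were at least 1.5-fold lower, against 12.1% of all genes, and none was higher. Mylip then stood at -0.97. Mlxipl, the glucose-responsive activator of fatty acid genes, stood at 67.9 and 51.2 CPM pooled (-0.41) and at -0.70 standardised. Abcg1, a cholesterol exporter, stood at 13.8 and 10.2 CPM (-0.44) and at -0.65. Nr1h2, a sterol receptor, stood at 13.5 and 10.2 CPM (-0.39) and at -0.79. The median of all genes was -0.17 on the standardised scale.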

How the data were processed

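Islet scRNA-seq was compared between 1 WT and 1 HFD library. Per the labels the authors used Cell Ranger (version 3.0.2) and the mm10 build. The deposited matrices hold counts of UMIs per gene and cell. Other mouse groups were not analysed here. The genes, lists and bands were chosen with earlier results of these data known.

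Barcodes with at least 500 genes and at most 20% mitochondrial UMIs were kept (2600 WT, 7297 HFD). The automatic threshold of Scrublet called 1 WT and 0 HFD barcodes, which was taken as a failed call, so the highest scores were left out at 0.8% for each 1000 barcodes (121 WT and 641 HFD barcodes, some of which failed other filters). Counts of both libraries were scaled to 10000 UMIs and clustered in scanpy v1.11.5 (2000 variable genes, 50 components, 15 neighbours, Leiden resolution 1) without the 34 genes, the other pathway genes or the main hormones. Clusters were named "X-like" from marker lists when at least 3 markers were detected, and 2 stayed unnamed, 1 of cells with little RNA and 1 with several hormones (548 cells).

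For each class the UMIs of its cells were added up. Sums carry exact Poisson intervals, ratios exact conditional (binomial) intervals, and ratios of arms from 3000 UMIs up normal ones, all at 95%. Standardised ratios used Mantel-Haenszel weights over UMI bands (edges 5000, 10000, 15000 and 30000), with normal intervals. Calls needed 50 UMIs over both libraries. The ratio methods were tested on simulated data. UMIs taken near 3′ ends were not compared between genes by level. All 34 genes are accounted for. Band values were given for the 3 sterol, 3 fatty acid and 2 regulator genes with most UMIs and the 3 of each arm with the largest ratio. Srebf1 by band, the interferon-led cluster and the genes named in it, and the genes named in α-like and δ-like cells were chosen after their values were seen.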

Additional observations from a re-analysis of the deposited data

Results flagged for a closer look

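The sterol arm of β-like cells moved in opposite directions between shared clusters when standardised over UMI bands. Its log2 ratio of HFD to WT was then 0.66 in the cluster led by Rasd1 and 0.58 in the cluster led by Fos. In the cluster led by Ifit1 it was -0.45. Pooled over depth, the values were 0.99, 0.88 and -0.03 in the same order, so the third cluster was level (interval -0.10 to 0.03). With 1 library per group the difference between the clusters was not tested beyond the counting intervals, which do not overlap between the first 2 and the third. Those intervals leave out the spread between cells. In thinned β-like cells the variance of the sterol arm was 2.41 (WT) and 2.08 (HFD) times the mean.

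Stard4 was higher in HFD in β-like cells, at a log2 ratio of 0.20, and lower in endothelial-like cells, at -1.28 on 36 WT UMIs and 6 HFD UMIs. This difference was not tested either, and the β-like value was -0.30 after standardisation over UMI bands.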

How the results depend on the processing

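No paired analysis was possible because each group is 1 library, and for the same reason no library could be left out. Each value below is a log2 ratio of HFD to WT in β-like cells. The sterol arm (0.43) was 0.15 with at most 15000 UMIs per cell, 0.33 without hormone and mitochondrial genes in the total and 0.23 when centred on the median of genes with at least 100 CPM. The fatty acid arm (-0.06) was -0.25, -0.17 and -0.26 in the same order, and the difference of the arms (0.49) was 0.40 with at most 15000 UMIs. The count of members at least 1.5-fold higher went from 3 to 1 when centred. In cells thinned to 5000 UMIs the arms were 0.40 and -0.05, beside 0.24 and -0.13 at 10000.

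The settings in this paragraph were chosen after seeing the data. Standardised over 5 UMI bands, the sterol arm was 0.04, the fatty acid arm -0.22 and their difference 0.26. Over steps of 2000 UMIs they were -0.06, -0.27 and 0.21, the one setting that turned the sterol arm's sign. With bands and without hormone and mitochondrial genes they were 0.05, -0.21 and 0.26. Without the interferon-led cluster they were 0.62, -0.01 and 0.63, and 0.28, -0.15 and 0.43 when also standardised. That rise of the sterol arm follows from the high WT sterol levels of the cluster left out. Within the shared clusters the sterol arm was 0.25 and the difference 0.29. The count of members at least 1.5-fold higher was 1 when standardised. The cause of the other shifts was not tested.

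The 3 β-like values moved by less than their counting interval under the settings for genes per cell, doublets, mitochondrial share, clustering resolution and other hormones. All 7 alternatives for each arm in endothelial-like cells stayed within the counting interval of the value given, which is wide at 498 and 178 sterol UMIs.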
